A study of Homo sapiens with 6 samples.

Results

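The genes described here are the transcription factor NRF2 (gene *NFE2L2*), its inhibitor KEAP1, and genes of antioxidant defence and iron handling, followed in OE-19 cells, an established line of adenocarcinoma of the esophagogastric junction (AEG). The list was written by gene symbol, with earlier results of these data known. It holds 33 genes, and 32 of them were found among the 60480 gene identifiers of the deposited count table. *SOD2* was not analysed here. RNA-seq was done on 3 libraries of control cells, labelled as a control knockdown by shRNA and named for puromycin (Puro) in the count table, and on 3 libraries of cells in which an shRNA had depleted IGF2BP3 (IGF2BP3 KD). All libraries came from the same cell line in the same serum-containing medium, and no library carried an oxidant, an iron load or an iron chelator in its label. The labels and methods do not say whether the 3 libraries of a group came from separate cultures, or whether the IGF2BP3 KD libraries share a single hairpin, so the p-values measure the spread between these libraries, which may be technical. The comparison asks which of these genes changed in RNA level when IGF2BP3, an RNA-binding protein that reads N6-methyladenosine, was depleted.

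In unstressed cells KEAP1 holds NRF2 and passes it to a CUL3 ubiquitin ligase for degradation. When KEAP1 is modified by electrophiles or oxidants, NRF2 accumulates, pairs with small MAF proteins and binds antioxidant response elements (AREs) near genes for glutathione synthesis, thioredoxin reduction, NADPH supply and quinone reduction. Iron genes form a second layer of control: the iron regulatory proteins IRP1 (*ACO1*) and IRP2 (*IREB2*) bind hairpins called iron-responsive elements (IREs), which block translation when they lie in a 5′ UTR and protect the mRNA when they lie in the 3′ UTR of *TFRC*. Both layers meet in ferroptosis, a form of cell death driven by iron and lipid peroxides.

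The iron-responsive elements are shown because the members that carry them did not all move the same way. A script searched the canonical transcripts of GENCODE v44 (hg38) for an unpaired C, a stem of 5 base pairs with G-U pairs allowed, and the loop CAGTG followed by any base but G. Of 13995 tested coding genes, 8 (0.0572%) held this pattern in the 5′ UTR and 80 (0.572%) in the 3′ UTR. Among the members, *FTH1*, *FTL* and *SLC40A1* held it once in the 5′ UTR, and *TFRC* held it at 4 places in the 3′ UTR. Each stretch below has 29 bases, is written 5′ to 3′ on the strand of the gene, and has the 6 bases of the loop in capitals.
FTH1 (5′ UTR, minus strand, chr11:61967574-61967602): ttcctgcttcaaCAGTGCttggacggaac
FTL (5′ UTR, plus strand, chr19:48965335-48965363): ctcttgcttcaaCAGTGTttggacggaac
SLC40A1 (5′ UTR, minus strand, chr2:189580661-189580689): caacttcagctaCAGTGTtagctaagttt
TFRC (3′ UTR, minus strand, chr3:196050979-196051007): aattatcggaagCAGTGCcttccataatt
TFRC (3′ UTR, minus strand, chr3:196050575-196050603): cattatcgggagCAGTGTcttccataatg
TFRC (3′ UTR, minus strand, chr3:196050510-196050538): ctgtatcggagaCAGTGAtctccatatgt
TFRC (3′ UTR, minus strand, chr3:196050463-196050491): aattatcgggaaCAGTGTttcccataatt

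The ARE core is shown because it is the sequence through which NRF2 acts. The core TGACNNNGC was searched on both strands in RefSeq promoters of GRCh38.p14, from 250 bases before to 50 bases after the start of each gene. It was found in 13.6% of 27305 promoters and in 14.6% of the 11028 promoters of tested coding genes. The table held the promoters of 26 of the 32 members and lacked *AKR1B10*, *FTH1*, *GSR*, *HMOX1*, *PRDX1* and *SOD1*. The core was in 6 of these 26 (23.1%), namely *AIFM2*, *GCLM*, *GPX2*, *ME1*, *PGD* and *TXNRD1*. The stricter word TGACTCAGC, which is contained in the core, was in the promoters of *ME1* and *AIFM2*, against 0.564% of all promoters. The stretches below are written on the strand of the gene with the core in capitals; *ME1* and *TXNRD1* each hold the core at 2 places, of which 1 is shown, the match in *PGD* is not shown, and for *GPX2*, *GCLM* and *AIFM2* the core lies on the opposite strand, so the capitals are its reverse complement. A match describes the letters of this window and is not evidence of NRF2 binding, and NRF2 sites further from the gene start were not searched.
ME1 (chr6:83431170-83431198): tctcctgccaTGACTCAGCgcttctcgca
TXNRD1 (chr12:104215670-104215698): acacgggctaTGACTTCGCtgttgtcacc
GPX2 (chr14:64942849-64942877): acctgtttttGCTAAGTCAtcctggggat
GCLM (chr1:93909446-93909474): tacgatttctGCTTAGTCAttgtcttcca
AIFM2 (chr10:70132829-70132857): cagcacgagtGCTGAGTCAcgccccgccc

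Total counts per library ranged from 53424071 to 69989087, and mitochondrial genes took between 8.67% and 9.06% of them. *IGF2BP3* itself was counted 7416, 7363 and 6532 times in the control libraries and 777, 792 and 794 times after its knockdown (log2 fold change -3.03, SE 0.06). Of 11 markers of gastrointestinal epithelium, *ERBB2*, *KRT8*, *KRT18*, *KRT19*, *EPCAM* and *CDH1* were well expressed, while *KRT20* stayed under 1 CPM. The summed level of the 11 was 19400 to 20400 CPM in control and 21300 to 21800 CPM in IGF2BP3 KD cells. Most of this sum was *ERBB2*, which alone had 12478 to 14653 CPM across all libraries. Of markers of other cell types, *PTPRC* reached at most 0.127 CPM, *PECAM1* at most 0.085 CPM and *KRT5* at most 0.056 CPM. From the list of immune markers, *LYZ*, at 2467 to 2700.5 CPM, and *CD68*, at 32.8 to 54.1 CPM, were present in all libraries. Which cells these reads came from was not tested. Of the 2163 exonic bases of *CD68*, 1765 are shared with a long non-coding RNA on the same strand, so its counts are uncertain. Of 5 fibroblast markers, *COL1A1*, at 20.5 to 33.5 CPM, was the one called higher and *COL1A2* had 0 counts, with a summed level of 20.8 to 24.0 CPM in control and 29.6 to 34.1 CPM in IGF2BP3 KD cells, and of 5 immune markers *CD68* alone was called higher and *CD3E* had 0 counts. Of the epithelial markers 3 were higher (*EPCAM*, *CDH17*, *ERBB2*) and 2 lower (*KRT8*, *KRT18*), and the part of these shifts in the results below was not tested.

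Expression is given as CPM, the counts of a gene relative to the size of its library after TMM scaling in edgeR, with the SD over the 3 libraries of a group. The test was the quasi-likelihood test of edgeR, and every adjusted p below comes from it, adjusted after Benjamini and Hochberg over all 19778 tested genes, unless DESeq2 is named. SE is the standard error of the log2 fold change. Calls of lower and higher describe IGF2BP3 KD against control cells at an adjusted p under 0.05. In cell populations such as these, fewer cells that express a gene and less of its RNA per cell cannot be told apart.

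All 32 members passed the filter on low counts, and their levels in single libraries ranged from 11.7 to 1710 CPM. In IGF2BP3 KD cells 12 members were lower, 6 were higher and 14 were not called. The 12 lower members are 37.5% of those tested, against 10.6% of all tested genes, and the 6 higher members are 18.8%, against 9.87%. Since the list was chosen with earlier results of these data known, these shares are not independent evidence about this class of genes. In either direction 20.4% of all tested genes were called. Small changes are called more easily at high counts, and among the 9857 genes whose mean reached 10 CPM, as that of every member did, 19.3% were lower and 16.5% were higher, so the share of higher members lay close to this background. The 3 IGF2BP3 KD values lay below the 3 control values in 15 members (17.8% of all tested genes) and above them in 10 (18.0%), where 35.8% of all tested genes did either. Exons of other genes overlap those of 11 members, which makes their counts uncertain; besides those described at their genes these are *TFRC* (191 bases shared), *GCLC* (529), *AIFM2* (986), *OSGIN1* (457) and *ACSL4* (78). The median log2 fold change of the members was -0.05, against 0.01 over all tested genes, and the changes ran from -0.44 in *ME1* to 0.74 in *NCOA4*. For comparison, among called genes of the whole table the median was -0.28 for lower and 0.31 for higher genes.

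**Figure D1:**
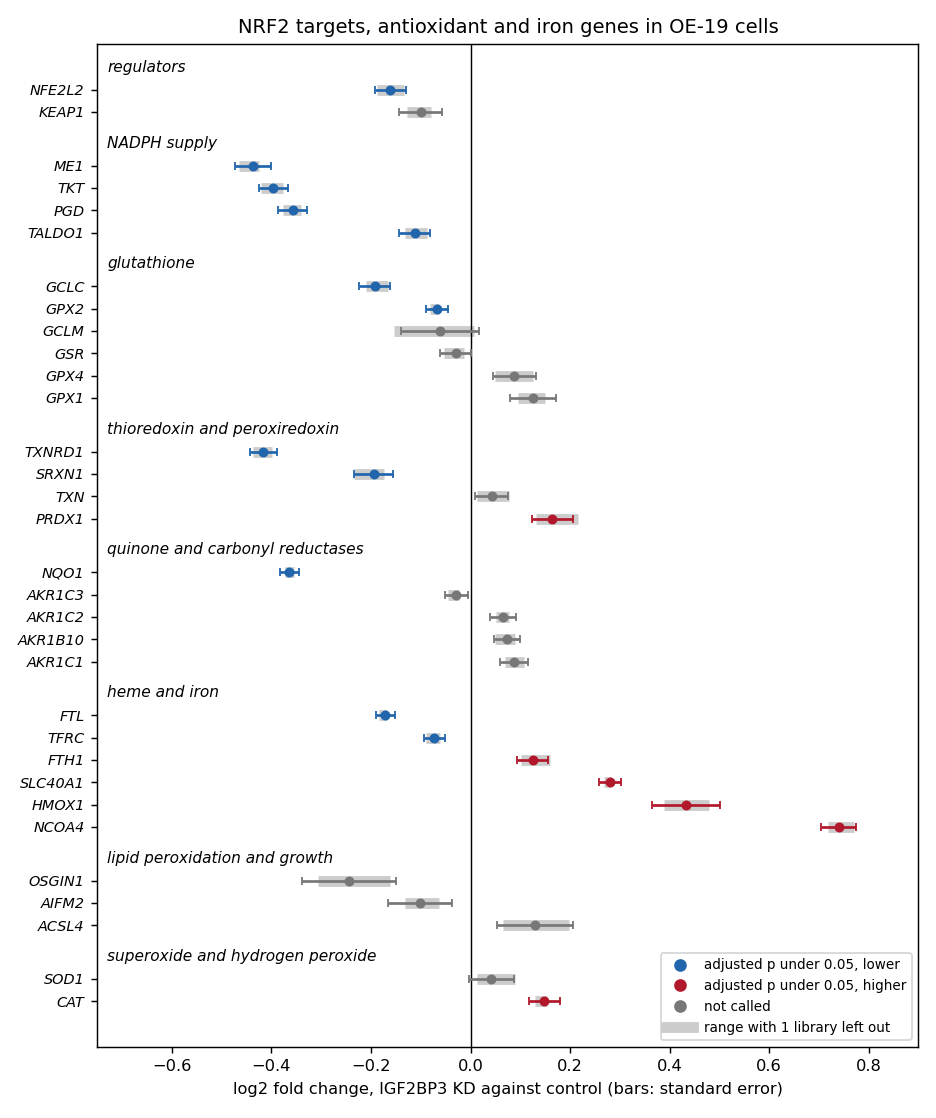
Log2 fold change of each of the 32 members in IGF2BP3 KD against control cells, grouped by role, with its standard error as a bar and the range over fits that each left out 1 library as a grey band. All 4 NADPH genes lie below 0, and the 6 heme and iron genes fall on both sides, from *FTL* at -0.17 to *NCOA4* at 0.74.

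*NFE2L2* encodes NRF2. Its expression was 389, 369 and 361 CPM in the 3 control libraries, here and below in the order of their replicate numbers, against 329, 338 and 334 CPM after knockdown. All IGF2BP3 KD values lay below all control values, and the change on the log2 scale was -0.16 (SE 0.03, edgeR adjusted p = 0.00346). *NFE2L2* (chromosome 2, 177218667 to 177392756, hg38) shares 3509 exonic bases with *HNRNPA3* on the opposite strand, and since the strand setting of the counting is not given in the sources used here, its counts are uncertain to that extent. *KEAP1*, the adaptor that brings NRF2 to degradation, had 76.6, 79.1 and 75.3 CPM in control and 69.3, 71.9 and 74.2 CPM in IGF2BP3 KD libraries. Its groups did not overlap either, but its log2 fold change of -0.10 (SE 0.04) did not pass the test (edgeR adjusted p = 0.147).

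The members that supply NADPH, the reductant of both the glutathione and the thioredoxin system, were all lower. Of all tested genes 10.6% were lower, and of those with a mean of at least 10 CPM 19.3%. *TKT*, the transketolase of the pentose phosphate pathway, had 576, 604 and 607 CPM in control and 455, 440 and 463 CPM in IGF2BP3 KD libraries, a log2 fold change of -0.40 (SE 0.03, edgeR adjusted p = 4.68e-06). *PGD*, the 6-phosphogluconate dehydrogenase that makes NADPH, had 391, 381 and 374 CPM in control and 301, 291 and 303 CPM in IGF2BP3 KD libraries, a log2 fold change of -0.36. *ME1*, the cytosolic malic enzyme and another source of NADPH, had 157, 149 and 157 CPM in control and 116, 112 and 114 CPM in IGF2BP3 KD libraries. *TKT* fell by 24.0%, *PGD* fell by 22.0% and *ME1* fell by 26.2%, each with a wide gap between the groups, and *ME1* had the largest fall of all members (log2 fold change -0.44, SE 0.04, edgeR adjusted p = 9.31e-06). *TALDO1*, the transaldolase, moved far less, from 225, 223 and 227 CPM to 213, 201 and 211 CPM (log2 fold change -0.11, SE 0.03, edgeR adjusted p = 0.0249). The *TALDO1* call was lost without control replicate 2 (adjusted p = 0.0541), control replicate 3 (0.0922), IGF2BP3 KD replicate 2 (0.12) or IGF2BP3 KD replicate 3 (0.0513) in the same test. The calls of *TKT*, *PGD* and *ME1* held with each library left out.

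**Figure D2:**
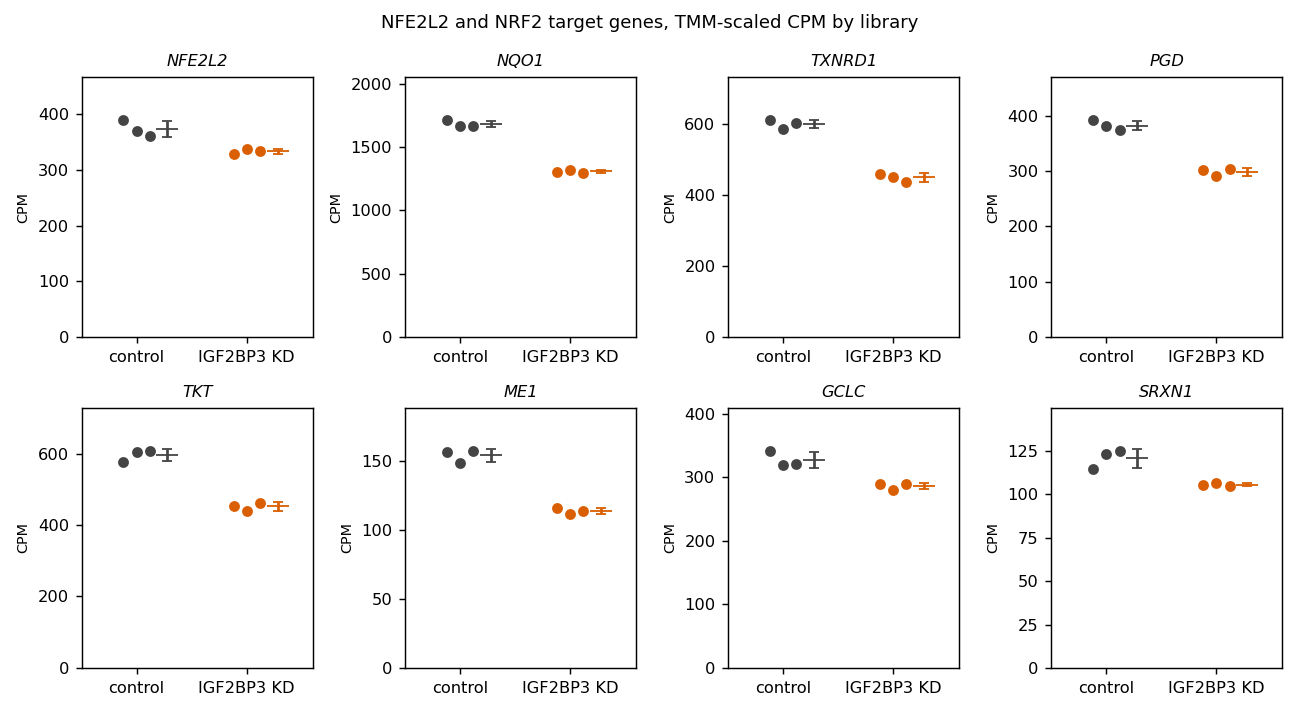
Expression of *NFE2L2*, *NQO1*, *TXNRD1*, *PGD*, *TKT*, *ME1*, *GCLC* and *SRXN1* in TMM-scaled CPM from 0, with a point for each of the 3 control (grey) and 3 IGF2BP3 KD (orange) libraries and the mean and SD beside them. In each of these genes all IGF2BP3 KD points lie below all control points, as in 17.8% of all tested genes. The panel holds only members called lower. The NRF2 targets *HMOX1* and *AKR1C1*, whose IGF2BP3 KD values lay above the control values, are not in it.

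Among the classical NRF2 targets, *NQO1*, the quinone reductase often used to read out NRF2, was lower in every IGF2BP3 KD library. It had 1710.5, 1669 and 1669 CPM in control and 1307, 1317 and 1299 CPM in IGF2BP3 KD libraries. The change on the log2 scale was -0.36 (SE 0.02, edgeR adjusted p = 4.44e-07), and it ranked 48 by p of all tested genes. *NQO1* (chromosome 16, 69706996 to 69726668) shares 575 exonic bases with a long non-coding RNA on the opposite strand. The other quinone and carbonyl reductases, the aldo-keto reductases *AKR1B10*, *AKR1C1*, *AKR1C2* and *AKR1C3*, were not called. They are also known NRF2 targets, and their log2 fold changes were 0.07, 0.09, 0.07 and -0.03, with no call by edgeR (adjusted p from 0.0522 to 0.453; at an unadjusted p under 0.05, 3 of the 5 reductases were higher), while DESeq2 called 2 of them, *AKR1B10* and *AKR1C1*, higher (adjusted p = 0.0331 and 0.0173). The values of *AKR1C1* were 370, 380 and 385 CPM in control and 406, 390 and 409 CPM in IGF2BP3 KD libraries, a small gap in the direction opposite to *NQO1*. *AKR1C1* was called higher without IGF2BP3 KD replicate 2 (adjusted p = 0.0464), and *AKR1B10* without control replicate 1 (adjusted p = 0.0233), in the same edgeR test. *AKR1C1* and *AKR1C2* are near-identical neighbours whose reads can be split between them, and with their counts summed the log2 fold change was 0.08 (edgeR adjusted p = 0.0477).

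In the thioredoxin system, *TXNRD1*, the selenoenzyme that reduces thioredoxin, fell most. It had 610, 586 and 602 CPM in control and 460, 451 and 437 CPM in IGF2BP3 KD libraries, a log2 fold change of -0.42 (SE 0.03, edgeR adjusted p = 1.99e-06). *SRXN1*, the sulfiredoxin that repairs overoxidised peroxiredoxins, had 115, 123 and 125 CPM in control and 105, 106 and 105 CPM in IGF2BP3 KD libraries, a log2 fold change of -0.19 (SE 0.04, edgeR adjusted p = 0.00486). The values of both genes did not overlap between the groups, but 2292 of the 2528 exonic bases of *SRXN1* are shared with a coding gene on the same strand, so its counts are uncertain. *TXN*, thioredoxin itself, had 384 to 419 CPM in control and 407 to 414 CPM in IGF2BP3 KD libraries. The groups of *TXN* overlapped and its log2 fold change of 0.04 was not called (edgeR adjusted p = 0.44), although it passed the test as higher without control replicate 1 (adjusted p = 0.0429). *PRDX1*, a peroxiredoxin that thioredoxin reduces, moved the other way, from 402, 359 and 363 CPM to 417, 413 and 430 CPM. Its change on the log2 scale was 0.16 (SE 0.04, edgeR adjusted p = 0.014), and 501 of its exonic bases are shared with *MMACHC* on the opposite strand. The *PRDX1* call was lost without control replicate 2 (adjusted p = 0.0724), control replicate 3 (0.0817), IGF2BP3 KD replicate 1 (0.0542) or IGF2BP3 KD replicate 3 (0.0731) in the same test.

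Of the 6 glutathione genes, 2 were lower and none was higher at the threshold, while at an unadjusted p under 0.05 in the same edgeR test 2 were lower and 1 was higher, and DESeq2 called *GPX1* higher (adjusted p = 0.0442). *GCLC*, the catalytic subunit of the enzyme that starts glutathione synthesis, had 341, 320 and 320 CPM in control and 290, 280 and 289 CPM in IGF2BP3 KD libraries. The groups did not overlap, and its change on the log2 scale was -0.19 (SE 0.03, edgeR adjusted p = 0.00131). *GCLM*, the modifier subunit of the same enzyme, had 76.2, 73.5 and 65.9 CPM in control and 77.1, 67.7 and 62.0 CPM in IGF2BP3 KD libraries. The *GCLM* groups overlapped, with a log2 fold change of -0.06 (SE 0.08) that was 0.01 without IGF2BP3 KD replicate 3. *GPX2*, the glutathione peroxidase of the gastrointestinal tract and an NRF2 target, had 800, 799 and 796 CPM in control and 755, 777 and 754 CPM in IGF2BP3 KD libraries. Its log2 fold change of -0.07 (SE 0.02) passed the test narrowly (edgeR adjusted p = 0.0489). The *GPX2* call was lost without control replicate 2 (adjusted p = 0.0844), control replicate 3 (0.108), IGF2BP3 KD replicate 1 (0.144) or IGF2BP3 KD replicate 3 (0.139). Glutathione reductase *GSR* at -0.03, *GPX1* at 0.13 and *GPX4*, the peroxidase that removes lipid peroxides, at 0.09 were not called. *GPX1* shares 572 exonic bases with a coding gene on its strand, and its 2 pseudogenes in the table had 12.9% as many counts as the gene.

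The heme and iron genes were all called, 4 higher and 2 lower. *NCOA4*, the receptor that delivers ferritin to the lysosome for iron release, rose most of all members. It had 125, 116 and 117 CPM in control and 197.5, 201 and 199 CPM in IGF2BP3 KD libraries, so that the groups were far apart. This is a rise of 67.0% (log2 fold change 0.74, SE 0.04, edgeR adjusted p = 2.32e-07), rank 33 by p of all tested genes. *NCOA4* (chromosome 10, 46005088 to 46030623) overlaps no exon of another gene.

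*SLC40A1*, ferroportin, the exporter of iron from cells, had 492, 485 and 488 CPM in control and 588, 601 and 589 CPM in IGF2BP3 KD libraries. Its change on the log2 scale was 0.28 (SE 0.02, edgeR adjusted p = 9.44e-06). *HMOX1*, the heme oxygenase that frees iron from heme and is itself an NRF2 target, had 25.0, 22.1 and 23.3 CPM in control and 29.8, 32.2 and 32.9 CPM in IGF2BP3 KD libraries. It was thus higher in all IGF2BP3 KD libraries while *NQO1* and *TXNRD1* were lower, with a log2 fold change of 0.43 (SE 0.07, edgeR adjusted p = 9.73e-04). *TFRC*, the transferrin receptor that imports iron, had 1214, 1169 and 1191 CPM in control and 1127, 1149 and 1122 CPM in IGF2BP3 KD libraries. The fall of *TFRC* was small, -0.07 on the log2 scale (SE 0.02, edgeR adjusted p = 0.0363). Its call was lost without control replicate 1 (adjusted p = 0.061), control replicate 3 (0.0985), IGF2BP3 KD replicate 1 (0.119), IGF2BP3 KD replicate 2 (0.051) or IGF2BP3 KD replicate 3 (0.115).

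The subunits of ferritin, which stores iron, moved in opposite directions. *FTL*, the light chain, had 1628, 1625 and 1625 CPM in control and 1429, 1439 and 1463.5 CPM in IGF2BP3 KD libraries, a log2 fold change of -0.17 (SE 0.02, edgeR adjusted p = 7.08e-05). *FTH1*, the heavy chain with ferroxidase activity, had 1252, 1307 and 1249 CPM in control and 1422, 1315 and 1416 CPM in IGF2BP3 KD libraries, a log2 fold change of 0.12 (SE 0.03, edgeR adjusted p = 0.0147). The *FTH1* values of IGF2BP3 KD replicate 2 and control replicate 2 lay close together, and its call was lost without control replicate 1 (adjusted p = 0.0516), control replicate 3 (0.0757), IGF2BP3 KD replicate 1 (0.0902) or IGF2BP3 KD replicate 3 (0.0832). The ratio of *FTH1* to *FTL* counts within a library, chosen after the values were seen, does not depend on scaling. It was 0.769, 0.804 and 0.769 in control and 0.995, 0.914 and 0.967 in IGF2BP3 KD libraries (two-sided exact permutation test, p = 0.1, the smallest that 3 against 3 libraries can give). The ratio was higher in each IGF2BP3 KD library than in each control library. *FTH1* shares 1267 exonic bases with *BEST1* on the opposite strand. Pseudogenes named after *FTH1* and *FTL* had 0.692% and 0.226% as many counts as the genes, and adding them left both calls in place, at 0.12 and -0.17.

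**Figure D3:**
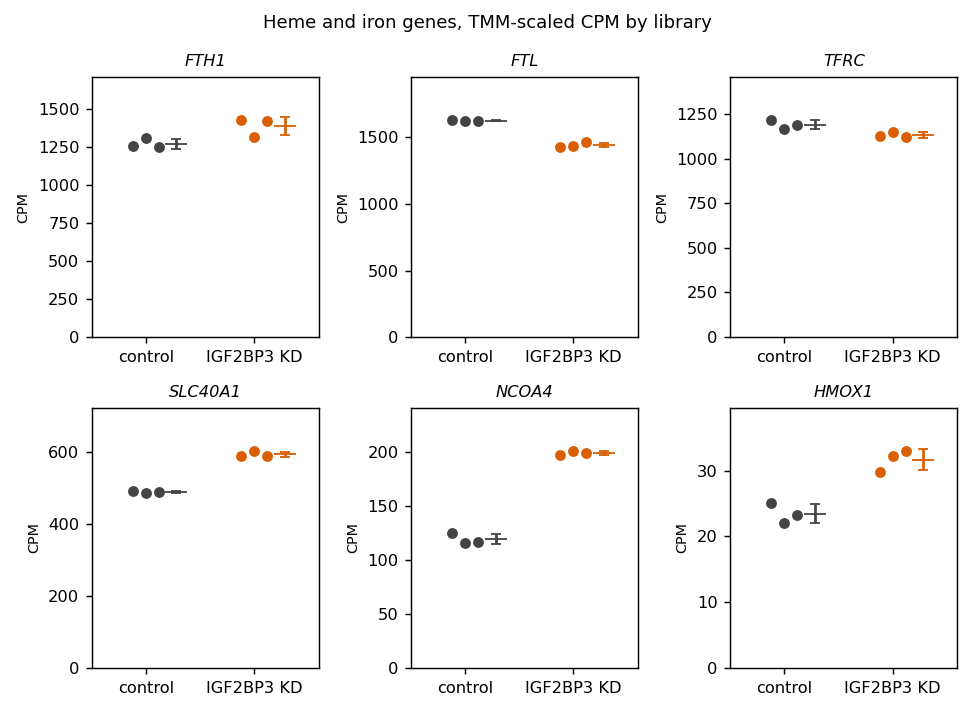
Expression of *FTH1*, *FTL*, *TFRC*, *SLC40A1*, *NCOA4* and *HMOX1* in TMM-scaled CPM from 0, with a point for each control (grey) and IGF2BP3 KD (orange) library and the mean and SD beside them. *NCOA4*, *SLC40A1* and *HMOX1* lie higher in all 3 IGF2BP3 KD libraries, *FTL* lies lower, and *FTH1* and *TFRC* moved by small amounts.

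The 3 members with an IRE in the 5′ UTR thus had log2 fold changes of 0.12 (*FTH1*), -0.17 (*FTL*) and 0.28 (*SLC40A1*), and *TFRC*, with IREs in the 3′ UTR, had -0.07. Of the proteins that bind these hairpins, *IREB2* was lower, from 94.9, 92.5 and 91.1 CPM to 79.0, 81.0 and 80.0 CPM (log2 fold change -0.21, SE 0.04, edgeR adjusted p = 0.0021). *ACO1* was not called, at 0.04 (SE 0.05) on the log2 scale. Both genes are named here after their values were seen. RNA levels do not show translation, which IREs in the 5′ UTR act on.

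Of the remaining members, *CAT*, the catalase that breaks down hydrogen peroxide, was higher. It had 148, 144 and 149 CPM in control and 161, 163 and 164 CPM in IGF2BP3 KD libraries, without overlap, a log2 fold change of 0.15 (SE 0.03, edgeR adjusted p = 0.00558). *SOD1*, the cytosolic superoxide dismutase, was not called (0.04, SE 0.04). None of the 3 members tied to lipid peroxidation and growth was called by edgeR or DESeq2, and at an unadjusted p under 0.05 in edgeR 1 was lower and 0 higher: *ACSL4*, which loads polyunsaturated fatty acids into lipids, had 0.13 (SE 0.08), *AIFM2*, the ferroptosis suppressor FSP1, had -0.10 (SE 0.06), and the NRF2 target *OSGIN1* had -0.24 (SE 0.09) on the log2 scale. In *OSGIN1* the 3 IGF2BP3 KD values, 14.4, 13.9 and 11.7 CPM, lay below the control values of 14.9, 16.3 and 16.3 CPM, and its adjusted p was 0.0974 by edgeR.

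To compare levels between genes, CPM was divided by the length of the canonical transcript in kilobases. On this scale control cells had most *FTL*, at 1867 ± 1.97 (SD, n = 3) CPM per kilobase, then *FTH1* at 1055 ± 26.8, *GPX2* at 866 ± 2.04, *NQO1* at 668 ± 9.44, *AKR1C3* at 606 ± 4.81 and *TXN* at 541 ± 25.0 CPM per kilobase. *PRDX1* at 397 ± 25.2 and *AKR1B10* at 394 ± 10.8 CPM per kilobase did not differ beyond their spread. *NQO1* stood above *AKR1C3* and *TXN* in control cells and below both in IGF2BP3 KD cells, at 519 ± 3.51 against 594 ± 10.6 and 557 ± 5.12 CPM per kilobase. *NCOA4* went from 34.5 ± 1.37 to 57.6 ± 0.506 CPM per kilobase. *OSGIN1* at 8.23 ± 0.423 and *ACSL4* at 6.65 ± 0.416 CPM per kilobase were lowest in control cells. The choice of transcript sets these values, and the canonical *AKR1C1* transcript carries a 3′ UTR of 5544 bases.

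**Figure D4:**
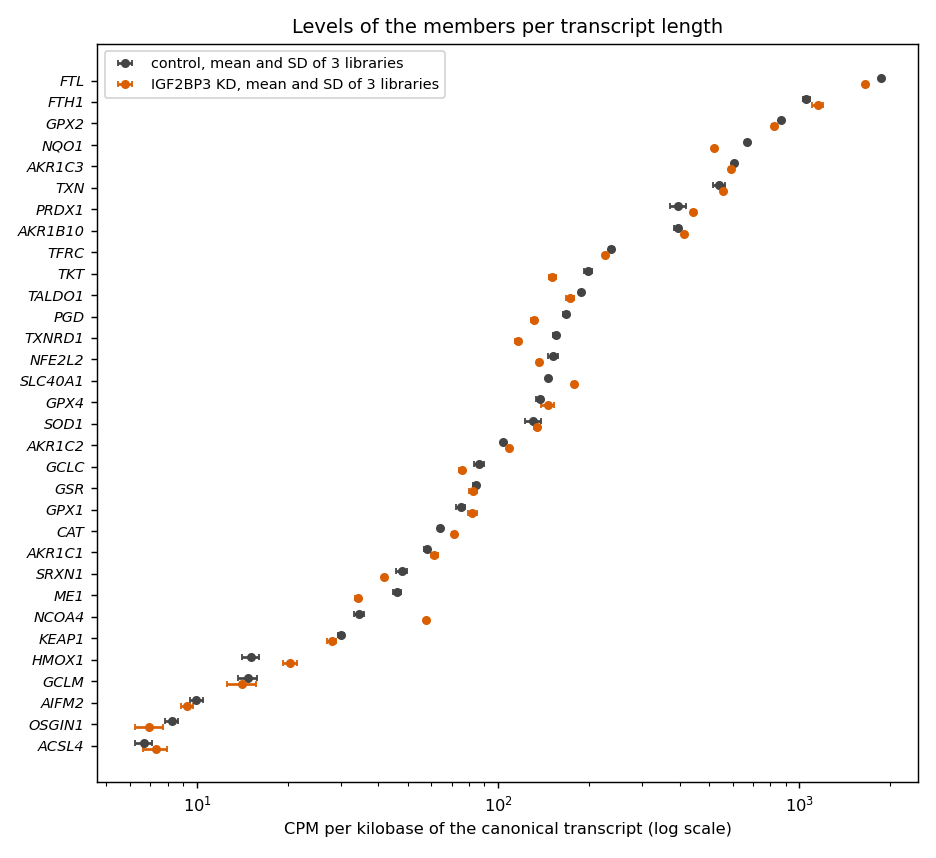
Level of each member in CPM per kilobase of its canonical transcript on a log axis, ordered by the control level, with points for the mean and bars for the SD of 3 control (grey) and 3 IGF2BP3 KD (orange) libraries. The levels span from 6.65 (*ACSL4*) to 1867 (*FTL*) in control cells, and the displacement between the groups is widest for *NCOA4*.

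The 3′ UTRs of the members were searched for the words GATTACT and ACACATC, which were chosen because earlier results of these data had set apart the genes that hold them. Of 13780 tested coding genes with a 3′ UTR of at least 50 bases, 7.78% held GATTACT and 9.64% held ACACATC. Of the 1072 genes with GATTACT 35.2% were lower and 6.72% higher, of the 1328 genes with ACACATC 10.7% were lower and 28.0% higher, and of the 11587 genes with neither word 13.2% were lower and 12% higher. Among the 32 members, GATTACT was in *NQO1* and *GSR* only, and ACACATC in *NCOA4*, *AKR1C1*, *AKR1C2* and *ACSL4*. These are 6.25% and 12.5% of the members, near the shares over all genes. *NQO1* was lower, *NCOA4* was higher, and *GSR*, *AKR1C1*, *AKR1C2* and *ACSL4* were not called. Since the words were chosen on these data, the directions are not independent evidence about them. *TXNRD1*, *TKT*, *PGD*, *ME1*, *GCLC*, *FTL*, *SLC40A1* and *HMOX1* were called and held neither word. The same holds for the other called members, *NFE2L2*, *SRXN1*, *TALDO1*, *TFRC*, *GPX2*, *PRDX1*, *FTH1* and *CAT*. Whether the words have a part in these changes was not tested. The sites are printed with the word in capitals, on the strand of the gene (hg38), and the stretches of *AKR1C1* and *AKR1C2* are the same.
NQO1 (chr16:69710787-69710813): tgattcttatGATTACTatcatggcat
NCOA4 (chr10:46006535-46006561): gctgattatcACACATCatgagctgag
AKR1C1 (chr10:4977815-4977841): tggtgactggACACATCgcctctggtt
AKR1C2 (chr10:4989897-4989923): tggtgactggACACATCgcctctggtt
ACSL4 (chrX:109641842-109641868): gttattacatACACATCagccatcaac

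The ARE core was looked up again beside the calls. Of the members with a promoter in the table, it was in 4 of the 12 lower (33.3%), 0 of the 3 higher and 2 of the 11 not called (18.2%). It was in 14.6% of the promoters of tested coding genes. The higher members *HMOX1*, *FTH1* and *PRDX1* had no promoter in the table. Of the lower members with the core, *ME1*, *TXNRD1* and *PGD* had log2 fold changes of -0.44, -0.42 and -0.36 and *GPX2* of -0.07. The other lower members, *NQO1*, *TKT*, *NFE2L2*, *GCLC*, *SRXN1*, *FTL*, *TFRC* and *TALDO1*, had no core in this window.

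Further genes of the same systems were counted from 5 lists of 106 genes in all, of which 96 were tested, 14 were lower and 11 were higher. These are 14.6% and 11.5% of those tested, against 10.6% and 9.87% of all tested genes and 19.3% and 16.5% of those with at least 10 CPM, so these shares lay near the background. The median log2 fold change was 0.02. Of 12 partners of NRF2 and KEAP1, 4 were lower and 0 higher, with a median of -0.08; at an unadjusted p under 0.05 in the same edgeR test 6 were lower and 0 higher, and DESeq2 also called 0 higher. The 4 became 2 without control replicate 2, control replicate 3 or any of the 3 IGF2BP3 KD libraries, where *MAFF* and *DPP3* lost their calls. Of 18 further NRF2 targets, 2 were lower and 3 higher (median 0.06). At an unadjusted p under 0.05 in the same edgeR test 4 were lower and 5 higher. DESeq2 called 3 lower and 3 higher, as did edgeR without control replicate 1, control replicate 2 or IGF2BP3 KD replicate 1. With replicate number as a block, edgeR called 4 lower and 3 higher. Of 25 further glutathione, thioredoxin and peroxide enzymes 1 was lower and 6 were higher (median 0.04). The 6 became 3 without IGF2BP3 KD replicate 3. Of 23 further iron genes, 4 were lower and 2 higher (median 0.04), while DESeq2 called 4 lower and 5 higher of 22, and 1 was higher without control replicate 2, control replicate 3 or IGF2BP3 KD replicate 3. Of 18 further ferroptosis genes, 3 were lower and 0 higher (median -0.04); at an unadjusted p under 0.05 in the same edgeR test 5 were lower and 1 higher, and DESeq2 also called 0 higher. Without control replicate 1, 2 were higher.

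Among the called genes of these lists whose mean reached 1 CPM, the 4 largest falls were in *CHAC1*, *SLC3A2*, *SLC7A11* and *ALDH3A1*. *CHAC1*, which degrades glutathione, had 64.0, 65.9 and 66.4 CPM in control and 29.6, 31.4 and 30.9 CPM in IGF2BP3 KD libraries (log2 fold change -1.09, SE 0.05, edgeR adjusted p = 1.52e-07). *SLC7A11* and *SLC3A2* form the cystine importer that feeds glutathione synthesis, and their log2 fold changes were -0.42 and -0.48 (SE 0.05 and 0.04). Both subunits were lower in all IGF2BP3 KD libraries, *SLC7A11* with 239 ± 16.9 CPM in control and 180 ± 7.01 CPM in IGF2BP3 KD cells, and *SLC3A2* with 285.3 ± 16.0 and 204.0 ± 7.503 CPM (SD, n = 3), and 865 exonic bases of *SLC7A11* are shared with a gene on the opposite strand. *ALDH3A1*, an aldehyde dehydrogenase, fell from 3234 ± 110.0 to 2484 ± 49.7 CPM (log2 fold change -0.38, SE 0.03). Under the same limits the 4 largest rises were in *CP*, *FECH*, *PRDX6* and *CYP4F3*. *CP*, the ferroxidase ceruloplasmin, had 4.93 ± 0.66 CPM in control and 6.77 ± 0.70 CPM in IGF2BP3 KD cells, changed by 0.46 on the log2 scale (SE 0.15, edgeR adjusted p = 0.0487), and shares 1420 exonic bases with *HPS3* on the opposite strand. The *CP* call was lost without control replicate 2 (adjusted p = 0.176), control replicate 3 (0.0985), IGF2BP3 KD replicate 1 (0.0718), IGF2BP3 KD replicate 2 (0.0912) or IGF2BP3 KD replicate 3 (0.184) in the same test. *FECH*, the ferrochelatase that puts iron into heme, had 0.37, the peroxiredoxin *PRDX6* 0.35 and the fatty acid hydroxylase *CYP4F3* 0.34 on the log2 scale. Genes that were not called are not ranked here. Some of them had large changes with wide standard errors, such as *TRIM16L* at -0.78 (SE 0.26, edgeR adjusted p = 0.0571) and *CBR3* at 0.60 (SE 0.28, edgeR adjusted p = 0.173). Both are named after their values were seen, and the largest fall of these lists, -1.28, was in a further iron gene that was not called.

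**Figure D5:**
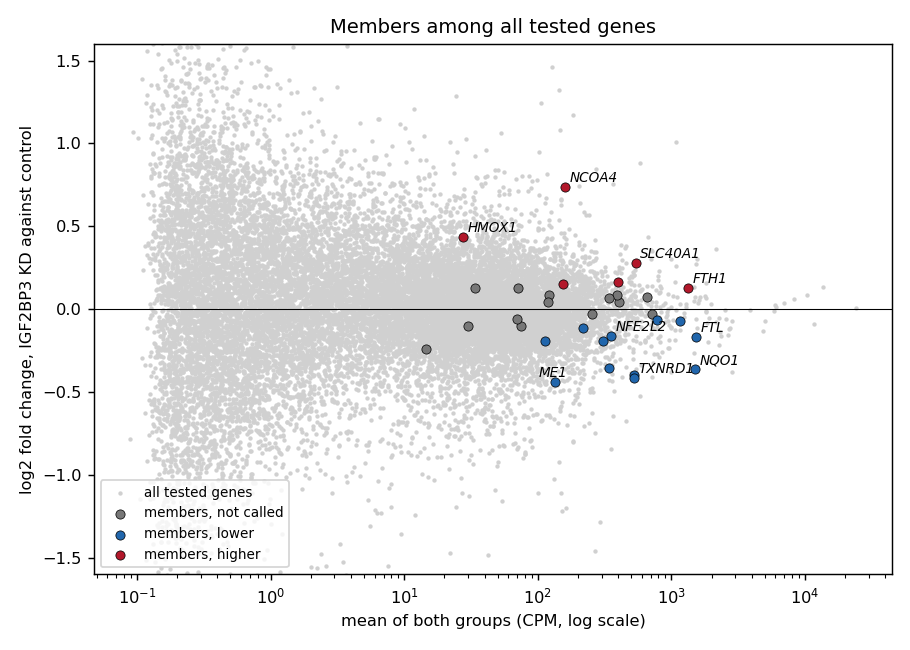
Log2 fold change against the mean level in CPM (log axis) of all tested genes in light grey, with the 32 members as larger points, blue where called lower, red where called higher and dark grey where not called. The members lie at high expression, where the cloud of all genes is narrow, and *NCOA4* stands highest among them at 0.74; 205 genes beyond 1.6 in size are outside the plotted range.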

How the data were processed

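RNA-seq of OE-19 cells was analysed from the count table that the authors deposited, which holds whole read counts per gene without normalization for 3 control and 3 IGF2BP3 KD libraries. The authors sequenced poly(A) RNA with a directional kit as paired reads, used hisat2 for alignment to hg38 and featureCounts for counting, and name fastp in their processing notes. Versions, annotation release and strand setting are not given in the sources used here.

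Columns were matched to libraries by name. The table repeats 44 identifiers, and 132 such entries were dropped. The test was run in edgeR 4.0.16 (R 4.3.3), with TMM scaling (factors 0.992 to 1.011), filterByExpr (minimum count 10, minimum total 15), and glmQLFit followed by glmQLFTest on the group alone; p-values were adjusted after Benjamini and Hochberg over 19778 genes. Standard errors are the log2 fold change divided by the square root of the F statistic. Libraries within a group differed by more than counting noise (chi-square per degree of freedom from 9.86 to 17.6), so none repeats another.

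The members and lists were chosen with earlier results of these data known. Every called member, *NFE2L2* and *KEAP1* are given by library, and from the further lists the 4 largest called rises and falls with a mean of at least 1 CPM. Gene positions, exon overlaps and transcripts come from GENCODE v44 on hg38, which holds 99.97% of the identifiers, and promoters from RefSeq (GRCh38.p14). Alternatives were DESeq2 1.42.0, RLE scaling, other filters, the replicate block, each library left out, a threshold of 0.01, and counts summed with near-identical copies. Python 3.11.15 with pandas 2.3.3, numpy 2.4.6, scipy 1.17.1 and matplotlib 3.10.9 was used.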

Additional observations from a re-analysis of the deposited data

How the results depend on the processing

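The same 13 of the 18 called members were called in each alternative fit run for them at the threshold of 0.05: *NFE2L2*, *PGD*, *TKT*, *ME1*, *GCLC*, *TXNRD1*, *SRXN1*, *NQO1* and *FTL* lower, and *HMOX1*, *SLC40A1*, *NCOA4* and *CAT* higher. *TALDO1*, *GPX2*, *TFRC*, *PRDX1* and *FTH1*, all with small changes, lost the call in some fits; the cause was not tested. No called member changed direction, and of the others *GCLM* ranged from -0.153 (without IGF2BP3 KD replicate 1) to 0.006 (without IGF2BP3 KD replicate 3). With 1 library left out, 9 to 11 members were lower and 4 to 7 higher, and 11 to 15 genes of the further lists were lower and 7 to 11 higher. The counts over all tested genes then were 1641 to 1970 lower and 1414 to 1741 higher. At an adjusted p under 0.01, 1314 genes were lower and 1098 higher over all tested genes, with 9 lower and 4 higher members, and 7 genes of the further lists were higher. Without a low-count filter 10 members were lower and 4 higher. DESeq2 called 12 members lower and 9 higher.

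Replicate numbers did not pair the libraries: the correlation of deviations from the group means was -0.029, -0.104 and -0.082 for the same numbers. With the replicate block 10 members were lower and 6 higher, *GPX2* (adjusted p = 0.0791) and *TFRC* (adjusted p = 0.0724) were no longer called by edgeR, and no other member's call changed. Over all tested genes 2026 were then lower and 1875 higher. Depth was high for the members, whose lowest mean was 914.8 counts per library, so the spread between 3 libraries sets the precision, and counts of genes that overlap others stay uncertain.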

Other observations

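Both subunits of glutamate-cysteine ligase were compared within each library. The ratio of *GCLC* to *GCLM* counts was 4.47, 4.35 and 4.86 in control and 3.76, 4.13 and 4.65 in IGF2BP3 KD libraries, and the groups overlapped (two-sided exact permutation test, p = 0.3). The level order of the members on the scale of CPM per kilobase also shifted. *SLC40A1* ranked 15 of the 32 members in control cells and 10 in IGF2BP3 KD cells, while *TXNRD1* ranked 13 and 17 and *PGD* 12 and 16. The 6 heme and iron genes kept their order among themselves. Beyond the genes named above, the lists held *SQSTM1*, an autophagy receptor that competes for KEAP1, at a log2 fold change of -0.17 (standard error 0.03), and *BACH1*, a repressor of *HMOX1*, at -0.33 (standard error 0.07). Both were lower (adjusted p = 0.00113 and 0.00522 in the edgeR test) and are named after their values were seen.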
